A study of Mus musculus with 2 samples.

Results

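The 8 genes described here, Sall1, Sall3, Maf, Mef2a, Mef2c, Spi1, Irf8 and Runx1, encode transcription factors of the microglial lineage. They were taken by name from the 31053 genes listed in both libraries. Microglia, the resident macrophages of the brain, came from the hypothalamus of young wild-type mice, several of which were pooled. All mice had received plasma protein carrying a dye 20 hours before the cells were taken. Fluorescence sorting separated cells without the dye (plasma-negative) from cells with it (plasma-positive), and each sort gave 1 droplet library, in which each captured RNA molecule is tagged with a unique molecular identifier (UMI). Strain, sex and the number of mice pooled are not given in the sources used here.

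The SALL and MEF2 proteins, MAF, PU.1 (encoded by Spi1), IRF8 and RUNX1 bind DNA at the regulatory elements of myeloid and microglial genes. PU.1 and RUNX1 act from early in blood cell development, IRF8 pairs with PU.1 at composite elements, and SALL1 and SALL3 are zinc finger proteins that are found in microglia and in few other macrophages. MEF2A, MEF2C and MAF are shared more widely among tissue macrophages and other tissues.

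Cells under 500 UMIs or 300 genes, or above 10% mitochondrial UMIs, were left out, after which 9860 plasma-negative and 10362 plasma-positive cells remained, with 34534518 and 41984977 UMIs. Median depth was 3270.5 and 3753 UMIs per cell, and the median mitochondrial share was 1.08% and 1.27%. The defining markers of the labelled cell type were present: all 11 microglia markers had at least 10 CPM, counts per 1000000 UMIs of the library, and summed to 32603 and 31017 CPM. Of the 12 lists for other cell types, 9 summed to less than 10 CPM in both libraries, and the other 3, for B cells, endothelial cells and the oligodendrocyte lineage, had 1, 1 and 2 genes at 10 CPM or more. Because there was 1 library per group, no difference below has a replicate check, no test was run, and every interval is a 95% interval for counting error only.

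All 8 factors were detected in both libraries, and their levels differed little between microglia with and without plasma protein. Levels are CPM of UMIs summed over cells. Molecules were counted near the 3' end and not per length, so that the order of the genes is an order of UMIs counted. The MEF2 and MAF genes stood highest. Mef2c ranked 50th of all genes in the plasma-negative and 68th in the plasma-positive library, Mef2a 92nd and 112th, and Maf 111th and 124th. Irf8 ranked 246th and 254th, Spi1 322nd and 326th, Sall1 334th and 339th, Runx1 722nd and 684th, and Sall3 981st and 1047th. The 8 genes together held 0.559% of plasma-negative and 0.523% of plasma-positive UMIs. Neighbours in this order were separated by more than their counting intervals, except Spi1 and Sall1 in the plasma-negative library, whose intervals of 403 to 417 CPM and 393 to 406 CPM overlapped.

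Between the libraries 0 of the 8 factors differed by 1.5-fold or more, in either direction. Among the 8355 genes with at least 10 CPM in 1 library, 0.323% (27 genes) were higher by that rule of size and 0.0239% (2 genes) were lower, so a count of 0 among 8 genes is near that background. In direction, 2 factors were higher and 6 were lower, with a median log2 ratio of plasma-positive over plasma-negative of -0.06, beside a median of -0.04 over all genes compared, of which 64.3% were lower. All 8 ratios lay between the 5th and 95th percentiles of those genes, -0.21 and 0.16.

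**Figure D1:**
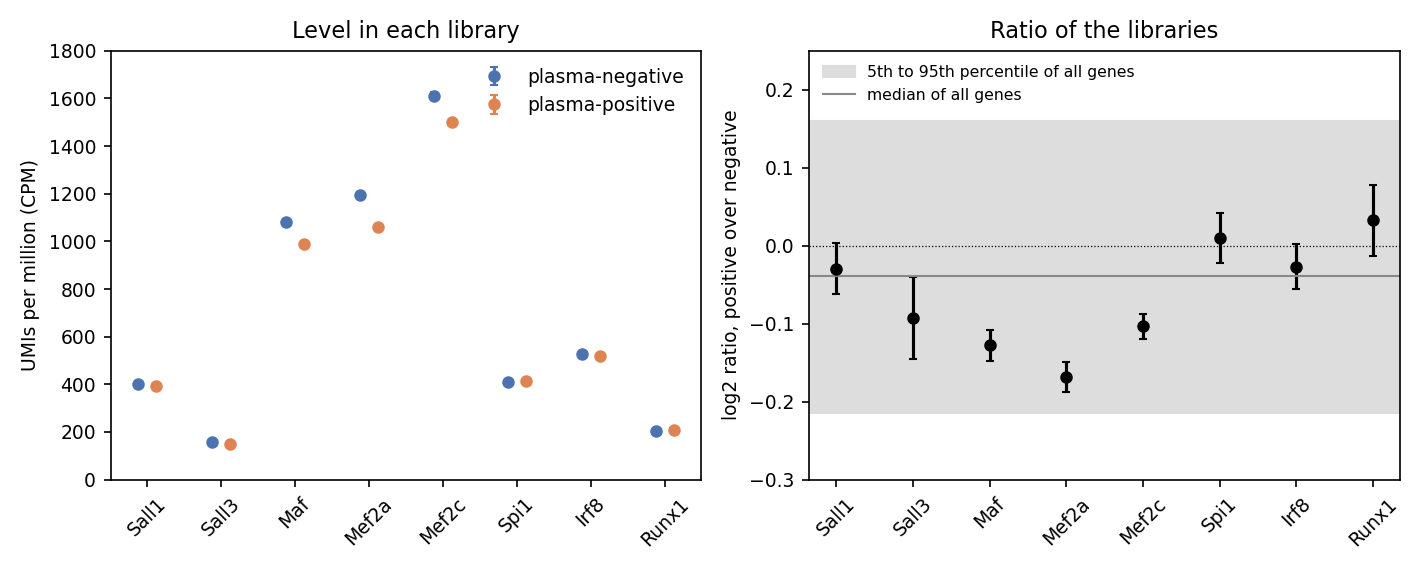
Left, the level of each factor in CPM in the plasma-negative and plasma-positive libraries, where the 95% Poisson intervals are smaller than the points. Right, the log2 ratio of the libraries with 95% counting intervals over the 5th to 95th percentile of all genes (grey band, -0.21 to 0.16) and their median (-0.04); all 8 points lie within the band and Mef2a is lowest at -0.17.

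Of the SALL genes, Sall1 was among the factors of middle level and Sall3 was the lowest of the 8. Sall1, a zinc finger repressor used to tell microglia from other macrophages (ENSMUSG00000031665, chromosome 8 from 89027235 to 89044162 on the minus strand), had 13802 UMIs in plasma-negative cells, or 400 CPM (393 to 406). In plasma-positive cells it had 16439, or 392 CPM (386 to 398). The libraries were separated by a log2 ratio of -0.03 (-0.06 to 0.00), a direction that turned positive with TMM scaling, with cells thinned to 1000 UMIs, and in cells outside 6 response sets described below. Sall3, its close relative (ENSMUSG00000024565, chromosome 18 from 80966376 to 80986771 on the minus strand), was at 158 CPM (154 to 162) without and 148 CPM (144 to 152) with plasma protein, and its log2 ratio was -0.09 (-0.15 to -0.04). Of the family's other members, Sall2 was at 19.5 and 18.7 CPM and Sall4 had no UMI in either library.

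Maf, a basic leucine zipper factor of mature macrophages (ENSMUSG00000055435, chromosome 8 from 115682942 to 115707794 on the minus strand), was at 1083 CPM (1072 to 1094) in plasma-negative and 991 CPM (981 to 1001) in plasma-positive microglia, from 37391 and 41606 UMIs. Its log2 ratio of -0.13 (-0.15 to -0.11) was larger than counting error and far under 1.5-fold, and 19.3% of all genes compared had a lower ratio. Mafg, a small MAF partner, was at 129 and 118 CPM (log2 ratio -0.14), also lower in the plasma-positive library. The antisense gene Gm15655 overlaps Maf on the other strand and had the same ratio, -0.13, at 57.9 and 52.9 CPM. The use of strand in counting was not stated, so reads of the pair may not be told apart.

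The largest difference among the 8 was that of Mef2a. This MADS-box factor (ENSMUSG00000030557, chromosome 7 from 67231163 to 67372858 on the minus strand) was at 1193 CPM (1181 to 1204) in plasma-negative and 1061 CPM (1051 to 1071) in plasma-positive microglia, counted from 41194 and 44557 UMIs. This was a log2 ratio of -0.17 (-0.19 to -0.15), and 10.5% of all genes compared had a lower one. Mef2c, the most abundant of the 8 factors and the member of its family most tied to microglia (ENSMUSG00000005583, chromosome 13 from 83504034 to 83667080 on the plus strand), was at 1612 CPM (1598 to 1625) without and 1500 CPM (1488 to 1512) with plasma protein, with a log2 ratio of -0.10 (-0.12 to -0.09). Mef2d was far less abundant, at 48.9 and 49.4 CPM, and Mef2b was under 0.1 CPM in both libraries. Lysmd4 overlaps Mef2a on the other strand at 5.76 and 5.03 CPM, too few UMIs to carry its ratio.

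The promoters of Mef2a and Mef2c are shown because their levels took the same direction, and the steepest course of the 8 factors, over the bins of Malat1 share described further on. The RefSeq promoter table (GRCm38.p6) matched 5 of the 8 factors, Sall1, Mef2a, Mef2c, Irf8 and Runx1. Capitals in the first pair mark GAGGAA, the core of the PU.1 box, searched on both strands. It occurred in 28.3% of 32851 promoter windows of 300 bases, so its presence is common. The Mef2a stretch, chr7:67372859-67373108 on the minus strand, is the 250 bases before the annotated start and holds the core at positions -114 to -109 and -103 to -98. The Mef2c stretch, chr13:83503784-83504033 on the plus strand, is the 250 bases before the start of the gene and holds it at positions -122 to -117. The last line is 30 bases around the Mef2a start, chr7:67372841-67372870 on the minus strand, with a match to the MEF2 consensus in capitals; that consensus matched in 3.19% of windows. These matches are letters in a window and were not measured as binding.
Mef2a promoter: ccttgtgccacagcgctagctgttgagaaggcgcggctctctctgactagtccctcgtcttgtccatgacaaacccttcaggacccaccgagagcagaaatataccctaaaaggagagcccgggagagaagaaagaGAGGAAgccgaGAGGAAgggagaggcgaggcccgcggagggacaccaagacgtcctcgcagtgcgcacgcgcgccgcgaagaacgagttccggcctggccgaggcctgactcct
Mef2c promoter: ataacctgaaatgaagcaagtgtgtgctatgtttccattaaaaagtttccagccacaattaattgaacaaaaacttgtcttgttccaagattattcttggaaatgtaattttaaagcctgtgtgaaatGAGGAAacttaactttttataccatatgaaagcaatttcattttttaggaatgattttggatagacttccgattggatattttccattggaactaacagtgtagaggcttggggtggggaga
Mef2a start: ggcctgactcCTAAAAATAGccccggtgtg

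The factors of the whole myeloid lineage were level between the libraries, as was Sall1 above. Spi1, which encodes PU.1 (ENSMUSG00000002111, chromosome 2 from 91082390 to 91115756 on the plus strand), was at 410 CPM (403 to 417) and 413 CPM (407 to 419). Its log2 ratio was 0.01 (-0.02 to 0.04), and it became -0.06 when 10 bins of cells by their share of Malat1 UMIs were weighted equally. Irf8, the partner of PU.1 (ENSMUSG00000041515, chromosome 8 from 120736358 to 120756694 on the plus strand), was at 527 CPM (519 to 535) and 517 CPM (511 to 524). Its log2 ratio of -0.03 (-0.06 to 0.00) turned positive with TMM scaling and in the mean of the Malat1 bins. Runx1 (ENSMUSG00000022952, chromosome 16 from 92601466 to 92826149 on the minus strand) was at 206 CPM (201 to 210) and 210 CPM (206 to 215). Its log2 ratio was 0.03 (-0.01 to 0.08) and was positive under each of 10 alternatives tried. For Spi1, Irf8 and Runx1 the counting interval of the ratio held 0, and so did that of Sall1 (-0.06 to 0.00).

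The related genes and partners at 10 CPM or more showed the same small differences, with 1 exception near that minimum. In the IRF family, Irf7, an amplifier of the interferon response, was at 4.08 and 10.7 CPM, a log2 ratio of 1.40. Of the 13 ETS, 7 IRF and 2 RUNX family genes at 10 CPM or more in 1 library, only Irf7 passed 1.5-fold. Irf7 met that minimum only through the library in which it was higher, so its being counted was not independent of its ratio. Irf2, the most abundant IRF gene after Irf8, was at 279 and 258 CPM (log2 ratio -0.11). Of the ETS genes 3 were higher and 10 lower, with Fli1 at 194 and 182 CPM. Cbfb, the binding partner of RUNX1, was at 41.3 and 43.4 CPM, whereas Runx2 and Runx3 stayed under 1 CPM. Of 21 other myeloid transcription factor genes at 10 CPM or more, 5 were higher, 16 were lower and none passed 1.5-fold, with a median log2 ratio of -0.05; Zfhx3 (1040 and 1002 CPM) and Zeb2 (660 and 614 CPM) were the most abundant.

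Factors known from other macrophages and lineages were close to 0. The 8 genes for macrophages of other organs, which include Gata6 and Pparg (no UMI) and Spic, summed to 1.27 and 1.31 CPM, and none was seen in more than 0.261% of cells. The 24 genes for neuronal, glial, endothelial, lymphoid and erythroid lineages summed to 0.840 and 1.19 CPM, and 9 of them had no UMI in either library. Of the genes whose products work with the 8 factors, the 13 subunits of NuRD, the repressor complex that SALL proteins recruit, had 6 higher and 7 lower and a median log2 ratio of -0.00. The 11 genes of TGF-beta signalling at 10 CPM or more, a pathway upstream of Sall1 in microglia, had 1 higher and 10 lower (median -0.08). Among 10 known targets of PU.1 and IRF8 at that level, 5 were higher and 5 lower (median 0.00), with Csf1r at 3057 and 3121 CPM. The 12 microglial identity genes had 2 higher and 10 lower (median -0.08). These counts of direction, and those of the ETS and other myeloid genes above, stand beside 64.3% lower and 35.7% higher among all 8355 genes compared. No gene of these 4 lists at 10 CPM or more passed 1.5-fold.

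Most microglia carried several of the factors at once. With all UMIs counted, Mef2c was seen in 95.7% of cells without and 96.4% of cells with plasma protein, Mef2a in 91.3% of both, Maf in 86.4% and 87.4%, Irf8 in 74.2% and 78.2%, Spi1 in 68.4% and 72.9%, Sall1 in 64.4% and 68.0%, Runx1 in 43.5% and 48.5%, and Sall3 in 36.0% and 38.3%. The plasma-positive library was the deeper one, so each cell was thinned to 1000 UMIs, which left out 796 and 603 shallower cells. After thinning, the shares for Mef2a were 65.2% and 61.6%, for Mef2c 77.1% and 74.7%, and for Maf 61.2% and 58.1%, now lower in the plasma-positive library. The shares for Sall1 (30.5% in both), Sall3 (13.5% and 13.2%), Spi1 (33.5% and 33.2%), Irf8 (38.6% and 39.2%) and Runx1 (17.6% and 18.0%) differed by less than 1 percentage point. For Sall3 this depended on the depth, since at 2000 UMIs per cell it was seen in 25.4% (24.5% to 26.4%) and 23.2% (22.3% to 24.1%) of cells. No cell type that should lack these genes was present in number, so a share from free RNA could not be given.

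**Figure D2:**
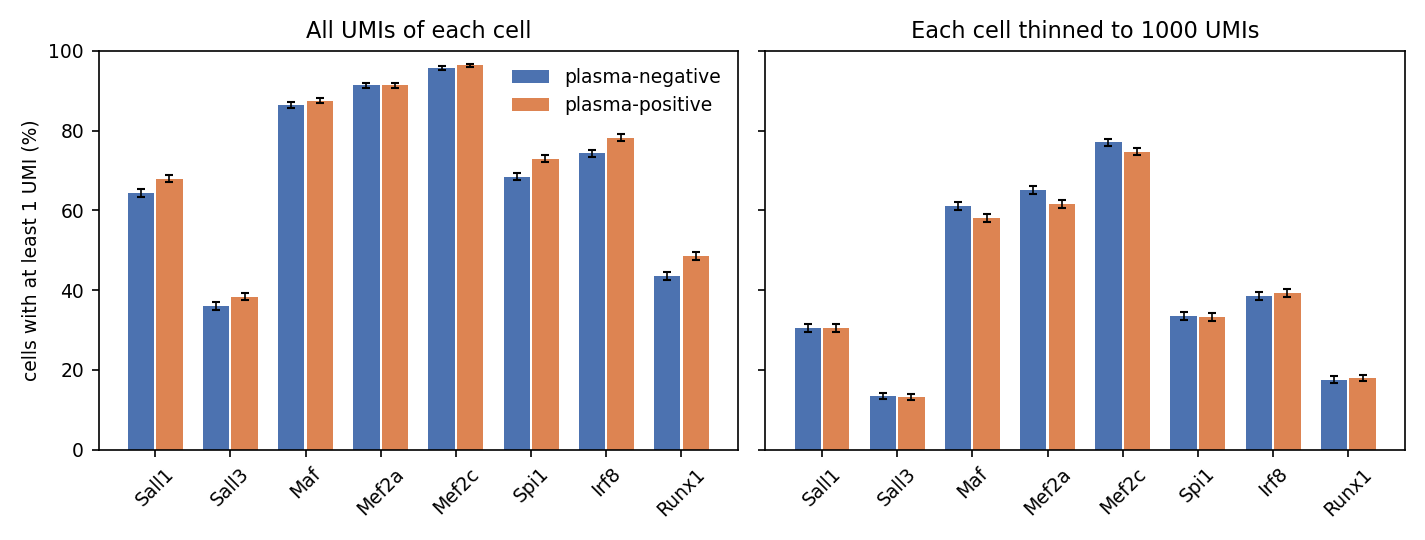
Percent of cells with at least 1 UMI of each factor in both libraries, with 95% exact binomial intervals, for all UMIs (left) and for cells thinned to 1000 UMIs (right). With all UMIs the plasma-positive bars are at or above the plasma-negative ones, and after thinning Maf, Mef2a and Mef2c are lower in plasma-positive cells (58.1% against 61.2% for Maf).

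The median cell held UMIs of 6 of the 8 factors in both libraries, and of 3 after thinning to 1000 UMIs. All 8 were seen in 993 plasma-negative cells (10.1%) and 1339 plasma-positive cells (12.9%), whose median depth was 5013 and 5393 UMIs. None was seen in 17 and 12 cells, whose median depth was 754 and 602 UMIs. After thinning, the mean number of factors per cell was 3.37 and 3.29. Cells without any factor in their 1000 UMIs, 94 and 137 in number, still held at least 4 microglia markers in 98.9% and 94.9% of cases.

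In the median, pairs of factors occurred together about as often as their separate shares give. Of 28 pairs, the median ratio of observed to given cells within 10 depth bins was 1.01 in both libraries, and the range was 0.994 to 1.03 and 0.990 to 1.05. The highest ratio belonged to Sall3 with Runx1 in both libraries. Mef2a and Mef2c were seen together in 88.2% and 88.8% of cells, and Spi1 and Irf8 in 54.4% and 60.2%. Across 9064 and 9759 thinned cells of 1 library each, Mef2a and Mef2c had the highest Pearson correlation of UMIs, 0.07 and 0.09, and the lowest pairs, Mef2a with Spi1 (-0.03) in plasma-negative and Mef2c with Spi1 (-0.04) in plasma-positive cells, both held Spi1. In counts this sparse such weak correlations are a description and no finding.

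The clearest pattern over cells was that of Malat1, a nuclear long non-coding RNA. Of 3500 genes at 50 CPM or more, it had the highest correlation with Mef2a, 0.249 and 0.250, and with Mef2c, 0.170 and 0.186. Next for Mef2a were Srgap2 (0.121 and 0.117) and Kcnq1ot1 (0.120 and 0.0705), and for Mef2c Srgap2 (0.0758 and 0.0826) and Mef2a. Spi1 was the one factor for which Malat1 had the lowest correlation of all genes in the plasma-negative library, at -0.06 in both libraries. Cst3, the gene for the abundant secreted cystatin C, was lowest there for the other 7 and reached -0.240 and -0.202 with Mef2a. The lowest genes were not sought in the plasma-positive library. These cells share a library and a fixed total of UMIs, of which Malat1 and Cst3 take large parts.

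The other factors had weaker companions. Cx3cr1, which encodes the fractalkine receptor of microglia, was first for Sall1 (0.0542 and 0.0709) and for Maf (0.0854 and 0.118). For Sall1 Marcks (0.0494 and 0.0488) and P2ry13 (0.0485 and 0.0257) followed, and for Maf Malat1 (0.0844 and 0.0815) and Zeb2 (0.0784 and 0.0638). Runx1 came with Malat1 (0.0541 and 0.0629), Nfatc1 (0.0472 and 0.00124) and Zeb2 (0.0449 and 0.0321). Irf8 came with Maf (0.0443 and 0.0296), Cx3cr1 (0.0443 and 0.0338) and Lair1 (0.0440 and 0.0116). Sall3 came with Mast3 (0.0477 and 0.0180), Mef2a (0.0449 and 0.0399) and Epb41l2 (0.0430 and 0.0237). Spi1 came with Hspa9 (0.0537 and -0.01), Actb (0.0527 and 0.0243) and Eif1 (0.0463 and 0.0283). At 2000 UMIs per cell 7 of these 24 genes stayed among the first 3, each of them Malat1 or Cx3cr1.

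When cells of both libraries were put into 10 bins by their share of Malat1 UMIs, from 0 to 3.20% in the first bin to 11.4% to 34.1% in the last, the factors separated. Mef2a went from 662 to 2173 CPM over the bins in the plasma-negative library and from 636 to 2147 CPM in the plasma-positive library, 3.28-fold and 3.38-fold. Mef2c was 2.07-fold and 2.12-fold higher in the last bin than in the first, Runx1 1.67-fold and 1.66-fold, Maf 1.59-fold and 1.49-fold, Sall3 1.34-fold and 1.63-fold, and Irf8 1.24-fold and 1.29-fold. Sall1 was nearly level (0.979-fold and 1.07-fold), and Spi1 was lower in the last bin, at 0.597 and 0.498 of its level in the first.

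Malat1 itself was at 65690 CPM in the plasma-negative and 54070 CPM in the plasma-positive library, a log2 ratio of -0.28. Within the 10 bins the difference between the libraries was small for Mef2a (median log2 ratio -0.02) and Mef2c (-0.01), while Maf was lower in the plasma-positive library in 9 of 10 bins (median -0.07) and Runx1 was higher in 9 of 10 (median 0.11). The part of the Malat1 share in the differences between whole libraries was not tested. Depth moved with the same quantity, since the shallowest of 10 depth bins (501 to 1416 UMIs) held Malat1 at 158019 and 145460 CPM. Mef2a was at 2351 and 2189 CPM in that bin against 1260 and 1106 CPM in the deepest, Mef2c at 2483 and 2488 against 1610 and 1458 CPM, and Spi1 at 268 and 233 against 399 and 390 CPM. In each of 10 depth bins and each of 10 bins of mitochondrial share, Maf and Mef2a were lower in plasma-positive than in plasma-negative cells. Across the mitochondrial bins Maf went from 1215 to 858 CPM and from 1100 to 775 CPM.

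**Figure D3:**
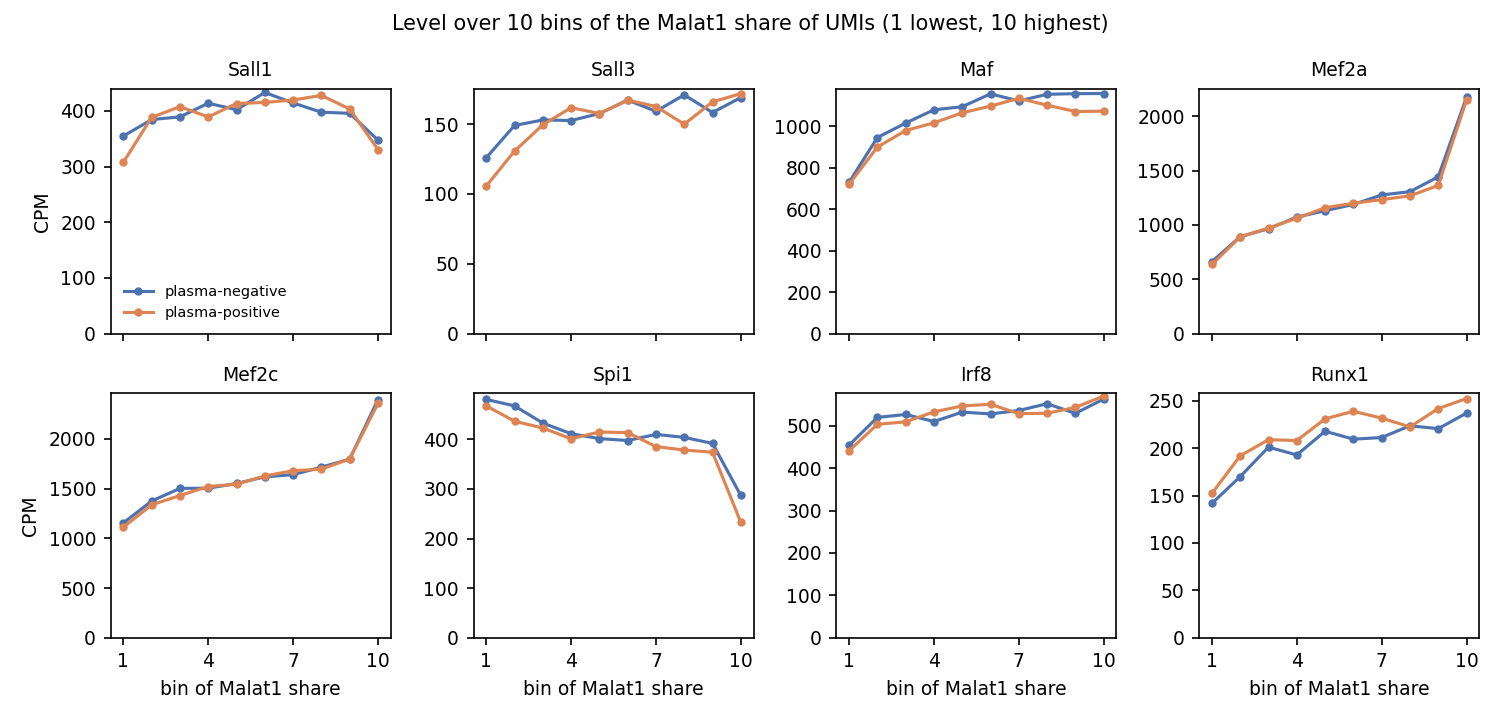
Level of each factor in CPM (vertical axes from 0) over 10 bins of cells ordered by their share of Malat1 UMIs, for the plasma-negative and plasma-positive libraries, 1 panel per factor. Mef2a and Mef2c are highest in bin 10 (2173 and 2395 CPM in plasma-negative cells), Spi1 is lowest there, and the lines of the libraries lie close together.

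The levels of several factors, Mef2a and Maf in both libraries and Sall1 in the plasma-positive one, were lower in cells with transcripts of Apoe or interferon genes. Cells thinned to 1000 UMIs were put in a set when they held at least 3 UMIs of Apoe, of 15 interferon genes or of 6 chemokine genes. These sets are ranges of a count and not cell types. The Apoe set held 154 plasma-negative and 629 plasma-positive cells, of which 53 and 101 had exactly 3 UMIs, and 126 and 234 cells outside had 2. The interferon set held 143 and 478 cells (69 and 147 with 3 UMIs, 277 and 460 with 2), and the chemokine set 103 and 354 (44 and 98 with 3, 174 and 304 with 2). In the plasma-positive library 129 cells were in both the Apoe and the interferon set, 20.5% of the first and 27.0% of the second. The chemokine set there shared 147 cells with the interferon set (41.5% of the chemokine set) and 119 with the Apoe set (33.6%).

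In the plasma-positive Apoe set, Sall1 was at 246 CPM (209 to 288) against 390 CPM in the cells below the set, a log2 ratio of -0.66 (-0.90 to -0.43). Sall3 was at 89.0 against 151 CPM (-0.76, from -1.17 to -0.38) and Mef2a at 693 against 1079 CPM (-0.64, from -0.78 to -0.50). Maf was at 690 against 985 CPM (-0.51, from -0.66 to -0.38) and Mef2c at 1157 against 1534 CPM (-0.41, from -0.52 to -0.30). Spi1 was at 402 against 419 CPM (-0.06, from -0.25 to 0.13), Irf8 at 456 against 512 CPM (-0.17, from -0.34 to 0.01) and Runx1 at 170 against 207 CPM (-0.28, from -0.58 to 0.00). At this limit the intervals of these 3 lineage-wide factors reached 0. With at least 5 Apoe UMIs, Irf8 was at -0.26 (-0.48 to -0.05) and Runx1 at -0.44 (-0.81 to -0.09), as low as Mef2c at -0.39 (-0.52 to -0.27), and of the 3 only Spi1 (-0.14, from -0.37 to 0.08) still had an interval that held 0.

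In the interferon and chemokine sets of the plasma-positive library Mef2a, Sall1 and Maf were again low, whereas Sall3 and Runx1 took other places. These sets shared cells with each other and with the Apoe set, so they are not separate observations. In the interferon set Mef2a was at 722 against 1071 CPM (log2 ratio -0.57, from -0.73 to -0.41), Sall1 at 264 against 386 CPM (-0.55, from -0.82 to -0.30), Maf at 757 against 977 CPM (-0.37) and Mef2c at 1287 against 1521 CPM (-0.24). The Sall1 ratio was -0.22 (-0.40 to -0.05) at 2 or more interferon UMIs. Sall3, lowest in the Apoe set, was at 132 against 148 CPM here (-0.16, from -0.55 to 0.20) and at 107 against 148 CPM in the chemokine set (-0.47, from -0.97 to 0.00). Runx1 in the interferon set was at 172 against 206 CPM (-0.26, from -0.60 to 0.06). Irf8, whose product belongs to the interferon regulatory factors, was at 515 against 508 CPM (0.02, from -0.17 to 0.20). In the chemokine set Mef2a was at 616 against 1070 CPM (-0.80, from -0.998 to -0.60), Sall1 at 232 against 386 CPM (-0.74, from -1.07 to -0.42) and Maf at 664 against 978 CPM (-0.56). Runx1 stood the other way, at 274 against 202 CPM (0.44, from 0.13 to 0.74), from 97 UMIs in the set. Spi1 was at 449 against 416 CPM (0.11, from -0.13 to 0.34). The 61 plasma-positive cells in all 3 sets had the lowest levels of Mef2a (377 CPM), Sall1 (164 CPM, 10 UMIs) and Sall3 (16.4 CPM, 1 UMI) of the sets formed from these 3 lists, with Spi1 at 393 CPM. The plasma-negative library had 0 such cells. In 263 plasma-positive cells of the interferon set and neither other, Mef2a was at 844 CPM (737 to 963), Sall1 at 323 (258 to 400) and Maf at 890 (779 to 1011). In 149 of the chemokine set alone they were at 779 (643 to 934), 289 (209 to 389) and 785 CPM (649 to 941). All thinned plasma-positive cells had 1054, 380 and 966 CPM. Both Sall1 intervals and the Maf interval of the interferon cells held those levels.

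The plasma-negative sets were smaller and their intervals wider. In its Apoe set Maf was at 701 against 1076 CPM (log2 ratio -0.62, from -0.91 to -0.34), Mef2a at 883 against 1189 CPM (-0.43, from -0.68 to -0.19) and Mef2c at 1351 against 1650 CPM (-0.29, from -0.49 to -0.09). Sall1 was at 351 against 376 CPM (-0.10, from -0.52 to 0.29), but at 5 or more Apoe UMIs it was at 200 against 376 CPM (-0.91, from -1.82 to -0.14, 13 UMIs). Irf8 was at 604 against 509 CPM (0.25, from -0.07 to 0.54). In the interferon set Mef2a was at 832 against 1190 CPM (-0.52, from -0.79 to -0.26) and Sall1 at 357 against 376 CPM (-0.07, from -0.50 to 0.32). The Sall1 ratio there was -0.35 (-0.62 to -0.09) at 2 or more UMIs and -0.53 (-1.48 to 0.28) at 5 or more, and that of Mef2a -0.25 and -1.02. In the chemokine set Mef2a was at 971 CPM and Sall1 at 388 CPM. The Sall1 value in these sets therefore depended on the limit, and the difference between the libraries was not tested.

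**Figure D4:**
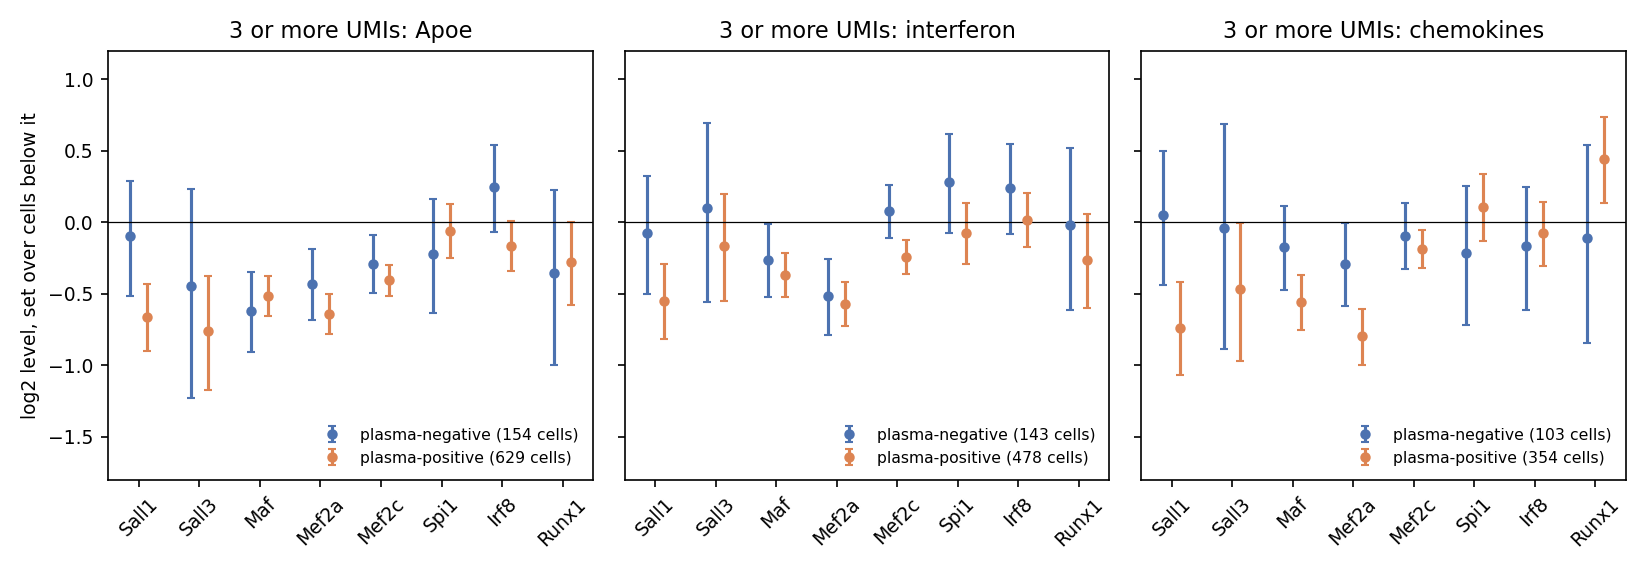
Log2 ratio of each factor's level in cells with at least 3 of 1000 UMIs of Apoe, interferon or chemokine genes over the cells below, per library, with 95% counting intervals. In plasma-positive cells Sall1 and Mef2a lie near -0.6 or lower in the Apoe set (-0.66 and -0.64) and Spi1 lies near 0 in all 3 panels, and the plasma-negative intervals are wider.

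Other properties moved with the sets. Cells of the plasma-positive Apoe set had a median of 4333 UMIs, 1.72% mitochondrial UMIs, 44568 CPM of Malat1 and 14.8% ribosomal protein UMIs, against 3854 UMIs, 1.26%, 56188 CPM and 10.1% in all thinned cells. Against cells below the set in the same bins of Malat1 count, chosen as a comparison after the data were seen, the log2 ratios in the Apoe set were -0.62 for Sall1, -0.65 for Sall3, -0.48 for Mef2a, -0.43 for Maf and -0.29 for Mef2c. Each of these 5 ratios kept its sign and was smaller in size than against all cells below. In the chemokine set Runx1 was at 0.50 and Mef2a at -0.72 by that comparison. The part of depth, mitochondrial and ribosomal share in them was not tested.

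Over grades of Apoe UMIs the levels of Mef2a, Sall1 and Maf in plasma-positive cells were lower at the top than at 0, and not at every step. There Mef2a was at 1089 CPM (1066 to 1112) among 7973 cells with 0 Apoe UMIs, at 1002 CPM with 1, at 1043 CPM with 2, at 911 CPM with 3 to 4, at 661 CPM with 5 to 9 and at 558 CPM (472 to 656) among 265 cells with 10 or more. Sall1 went from 396 CPM (382 to 410) at 0 Apoe UMIs to 289 CPM with 3 to 4 and 181 CPM (134 to 240) with 10 or more, and Maf from 996 to 800 and 611 CPM. Spi1 was at 424 CPM (409 to 438) at 0 and 408 CPM (334 to 492) with 10 or more, Irf8 at 506 (491 to 522) and 426 CPM (351 to 513), and Runx1 at 204 (195 to 215) and 155 CPM (111 to 210). In the plasma-negative library 20 cells held 10 or more Apoe UMIs, and Mef2a in them was at 700.0 CPM (383 to 1174) against 1197 CPM at 0. Other plasma-negative values went the other way: Irf8 was at 514 CPM at 0 and 1050.0 CPM (650.0 to 1605, 21 UMIs) with 10 or more, and Sall1 was at 379 CPM at 0 and 461 CPM (331 to 625) with 3 to 4.

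**Figure D5:**
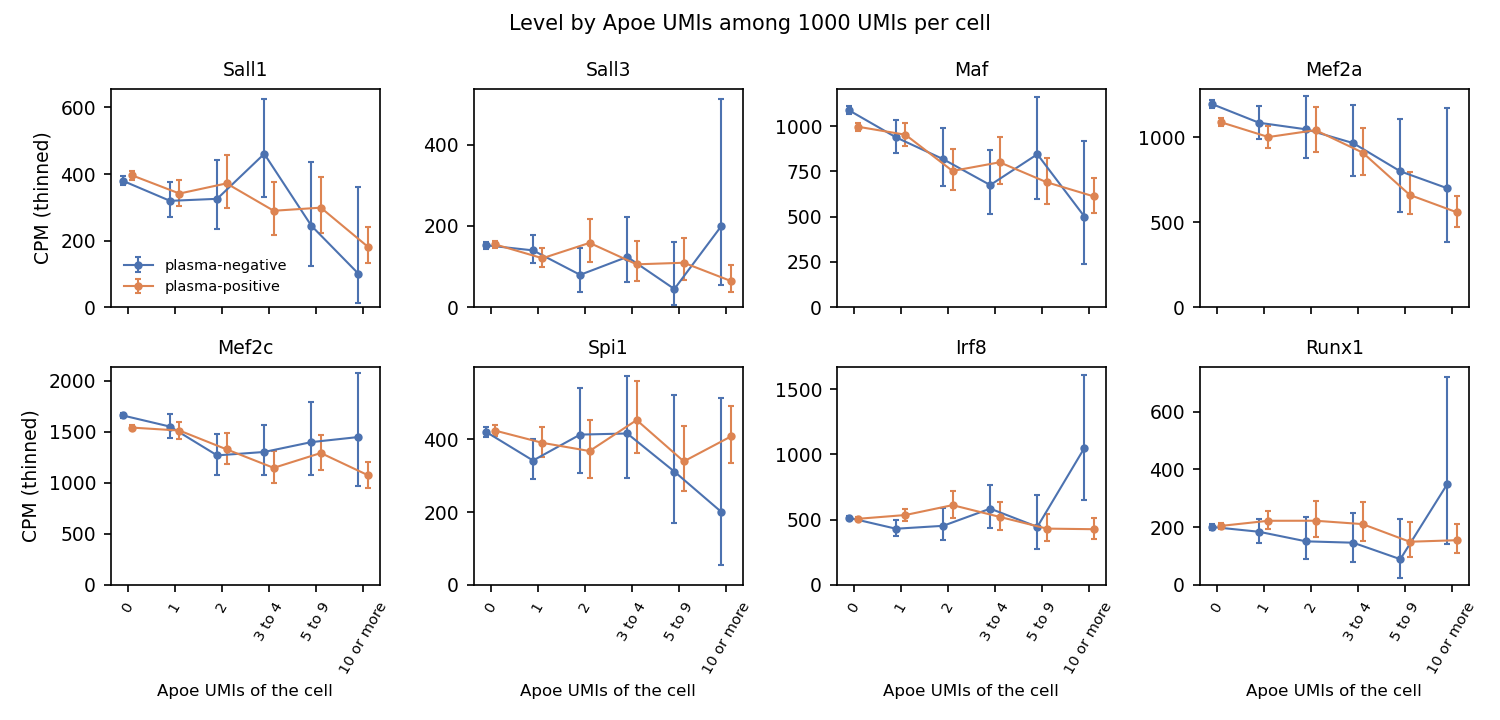
Level of each factor (CPM of cells thinned to 1000 UMIs, vertical axes from 0) by the number of Apoe UMIs of the cell, per library, with 95% Poisson intervals. In plasma-positive cells Mef2a goes from 1089 to 558 CPM and Sall1 from 396 to 181 CPM, while Spi1 ends at 408 CPM; the last plasma-negative points rest on 20 cells.

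Because more plasma-positive cells lay in these sets, the libraries were also compared over thinned cells in none of 6 sets (the 3 above, immediate early, cell cycle and MHC class II genes), 8215 plasma-negative and 8235 plasma-positive cells, a comparison chosen after the data were seen. The log2 ratios there were -0.12 for Mef2a, -0.11 for Maf and -0.10 for Mef2c, beside -0.17, -0.15 and -0.12 over all thinned cells, and 0.08 (0.01 to 0.16) for Sall1, beside 0.02. Sall1 was thus at 397 CPM in plasma-positive and 375 CPM in plasma-negative cells outside the sets, the reverse of its direction over all UMIs.

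Cells with markers of other types were few. The plasma-positive library had 4 cells with at least 3 border macrophage markers, and the plasma-negative library had 0. Among 16287 UMIs, those 4 cells held 16 of Maf and 20 of Mef2c, each in all 4 cells. They also held 11 UMIs of Mef2a, 5 of Spi1, 4 of Irf8, 1 of Sall1 and 0 of Sall3 and Runx1. Sall3 and Runx1 were the lowest of the 8 in the whole plasma-positive library, at 148 and 210 CPM. In so few UMIs, a count of 0 does not show that these cells lacked them. Oligodendrocyte markers marked 5 and 6 cells, which also held UMIs of all 8 factors, with Mef2a in every one of them.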

How the data were processed

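The deposited values are raw UMI counts per gene and cell, which the authors made from Chromium Single Cell 3' v3.1 libraries. Per the file headers they were written by Cell Ranger 6.1.2, whereas the submitters' processing notes name version 3.0.1, and the difference could not be settled. The genome build, the annotation and the use of strand are not given in the sources used here. Coordinates come from GENCODE M21 on GRCm38, and promoters from RefSeq (GRCm38.p6). Both builds may differ from the authors' own. Cell barcodes were not used here, so barcodes common to both libraries were not counted.

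From 9878 and 10390 deposited cells, 1 and 0 fell below the gene minimum and 17 and 28 exceeded the mitochondrial limit. UMIs were summed per library and divided by the total (CPM, no pseudocount). Sums carry exact Poisson, shares exact binomial (Clopper-Pearson) and ratios exact conditional binomial 95% intervals, which treat UMIs as independent and leave out differences between mice, sorts and preparations (scipy 1.17.1, numpy 2.4.6). Cells are not replicates. Doublets, droplets with more than 1 cell, were kept, as the selection of cells did not remove them. Scrublet's automatic threshold in scanpy 1.11.5 called 0 cells and had not worked. The alternative took out the highest scores at the expected 7.89% and 8.29% (778 and 859 cells). TMM scaling used edgeR 4.0.16 only for its factors, with no test. The calculations were tested on simulated data.

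The 8 genes and all lists were chosen with earlier results of these data known. All 8 are given. From each list, genes past 1.5-fold at 10 CPM and the 3 most abundant could be named, and for each factor the 3 genes with the highest correlation in the plasma-negative library. Sall4, Mef2b, Runx3, Gata6, Pparg and Spic, which were at or near 0, were named after their values were seen. So were Cybb, which was under 10 CPM, and the overlapping genes Gm15655 and Lysmd4.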

Additional observations from a re-analysis of the deposited data

How the results depend on the processing

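No paired analysis was possible because there was a single library on each side, which also left no replicate to omit. No factor reached 1.5-fold under any of 10 alternatives (cell filters, doublets, scaling, thinning, cells outside the sets, Malat1 bins). Over these the log2 ratio of Mef2a ranged from -0.18 to -0.02, Maf from -0.15 to -0.06, Mef2c from -0.12 to -0.01, Sall3 from -0.10 to -0.00 and Runx1 from 0.02 to 0.11, whereas Sall1 (-0.04 to 0.08), Spi1 (-0.06 to 0.05) and Irf8 (-0.04 to 0.01) took both signs. The largest shift of the median of all genes was 0.04, with TMM scaling. The count of all genes past 1.5-fold, 27 higher and 2 lower, moved to 43 and 19 with thinning, to 15 and 18 in cells outside the 6 sets, to 1450 and 1035 with no CPM minimum and to 5 and 0 with a minimum of 50 CPM. It was 1 lower with TMM scaling and 1 lower in the mean of the Malat1 bins. The mean number of factors per cell, 3.37 and 3.29, was 5.60 and 5.81 without thinning and 4.86 and 4.77 at 2000 UMIs. With all UMIs counted and no depth bins, the median co-detection ratio was 1.04 in both libraries. The number of factors lower in the plasma-negative interferon set was 7 at 2 or more UMIs and 4 at 3 or more, and it differed again at 5 or more. The share of all genes lower in that set was not counted, so these counts have no background beside them. The comparisons outside the 6 sets and by Malat1 bins were chosen after the data were seen. Shares of cells and sparse sets are limited by 1000 UMIs per cell, and all values by 1 library per group.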

Other observations

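In the remaining sets of cells the factors took other orders. The immediate early set (at least 3 of 1000 UMIs of 10 listed genes) held 486 plasma-negative and 420 plasma-positive cells. Levels of the factors in it were close to those of the cells below it. The list was mostly counted through Junb (216 and 208 CPM in the whole libraries), Btg2 (208 and 186 CPM) and Jun (208 and 183 CPM). Its members Fos (0.261 and 0.691 CPM) and Egr1 (2.75 and 4.41 CPM) were rare. Mef2c there was at 1621 against 1646 CPM and at 1531 against 1509 CPM, and Spi1 was at 426 against 415 CPM and at 481 against 415 CPM (log2 ratios 0.04 and 0.21). The cell cycle set, 14 and 39 cells, had Irf8 at 714 against 510 CPM (10 UMIs in the set) and at 795 against 507 CPM (31 UMIs), log2 ratios of 0.49 (-0.58 to 1.37) and 0.65 (0.09 to 1.16). Sall1 in the same cells had 1 UMI in the plasma-negative and 8 UMIs in the plasma-positive library, 205 against 381 CPM in the latter (-0.89, from -2.11 to 0.09). The MHC class II set, 10 and 23 cells, had Maf at 478 against 968 CPM in plasma-positive cells (-1.02, from -2.02 to -0.18, 11 UMIs). The last 2 sets rest on few cells and UMIs.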
